A study of Mus musculus with 6 samples.

Results

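Atf4 and 9 genes that it is known to control were followed in B16-F10 melanoma cells grown in culture, a line from C57BL/6 mice, in which Sirpa was either knocked out or intact. The 10 were taken from the 39179 genes in the files by symbol, as a pathway and not by a threshold on measured values, though with earlier results of these data known. They are the transcription factors Atf4 and Ddit3, the pseudokinase Trib3, the asparagine synthetase Asns, the amino acid transporter subunits Slc7a5 and Slc3a2, and the serine and one-carbon enzymes Phgdh, Psat1, Shmt2 and Mthfd2. Each had its own row, and each had counts in each of the 6 libraries. Poly(A)-selected RNA was sequenced from 3 Sirpa-KO and 3 Sirpa-WT libraries, and the comparison asks how steady-state expression differs between the genotypes. The labels name no agent, time or animal, do not describe the edit or say whether 1 clone or several were used, and are silent on separate cultures for the replicates, so the p-values speak to the spread among these 6 libraries, which may be technical. A label field gives the source as tumour and the cell line as Pmel, against the series text.

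When cells lack amino acids or load their endoplasmic reticulum with unfolded protein, kinases phosphorylate the translation factor eIF2α. Protein synthesis then slows, while Atf4 mRNA, which carries upstream open reading frames, is translated more. The ATF4 protein pairs with C/EBP and other bZIP factors on composite C/EBP-ATF response elements and induces amino acid synthesis and uptake, and under lasting stress also Ddit3 (CHOP) and Trib3. Because much of this control acts on translation, Atf4 mRNA is not a measure of ATF4 protein.

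The response element was searched as TGATGNAA on both strands of the promoter windows in RefSeq's GRCm38.p6 table, which run from 250 bases before a transcription start to 50 after it. Of these 10 genes, 9 had a window (Slc7a5 did not), and 2 of the 9 held a match, Asns and Trib3, against 4.51% of the 27025 genes with a window. In Asns (chr6:7693160-7693459, minus strand) the match reads forward from position -23, and in Trib3 (chr2:152344011-152344310, minus strand) it reads on the opposite strand from position 15, with the start counted as 1. Both are shown because they are the stress-responsive pair with a match, and Phgdh (chr3:98339920-98340219, minus strand), with no match in this window, because it had the smallest p of the 10 without the library set apart below. Capitals mark the match. A match of letters is not a bound site.
Asns: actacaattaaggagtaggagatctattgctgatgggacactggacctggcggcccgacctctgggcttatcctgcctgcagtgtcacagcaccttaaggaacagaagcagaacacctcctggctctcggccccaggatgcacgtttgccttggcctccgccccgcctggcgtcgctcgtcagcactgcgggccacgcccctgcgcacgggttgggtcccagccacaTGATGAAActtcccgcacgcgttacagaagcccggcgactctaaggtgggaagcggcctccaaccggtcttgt
Trib3: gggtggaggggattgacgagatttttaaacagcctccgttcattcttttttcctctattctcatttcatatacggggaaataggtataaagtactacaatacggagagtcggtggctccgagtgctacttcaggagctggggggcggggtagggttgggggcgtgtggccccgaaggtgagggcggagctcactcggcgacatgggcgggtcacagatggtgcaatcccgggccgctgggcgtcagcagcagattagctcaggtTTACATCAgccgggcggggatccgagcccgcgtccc
Phgdh: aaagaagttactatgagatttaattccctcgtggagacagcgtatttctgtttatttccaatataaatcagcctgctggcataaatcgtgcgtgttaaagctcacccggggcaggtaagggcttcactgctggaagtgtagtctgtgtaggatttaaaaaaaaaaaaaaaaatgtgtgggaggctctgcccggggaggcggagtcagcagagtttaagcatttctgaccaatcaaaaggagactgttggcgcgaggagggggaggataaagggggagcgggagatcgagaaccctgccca

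Among other pathway genes the same letters stood in the windows of 5 of 12 aminoacyl-tRNA synthetase genes (Aars, Gars, Iars, Tars and Yars), 6 of 19 genes for ATF4 partners and stress effectors (among them Atf3, Chac1 and Nupr1), and 2 of 9 amino acid transporter genes (Slc7a11 and Slc1a4). Matches also stood in 2 of 10 genes of other amino acid synthesis (Got1 and Pycr1). Among genes for the kinases, phosphatases and factors of eIF2, 1 of 13 held a match (Eif2s3x). They stood in 0 of 14 endoplasmic reticulum chaperone genes and 0 of 15 other serine and one-carbon genes. These are counts in reference sequence and carry no test.

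One library stood apart. Total counts were 29877270 in the library labelled Sirpa-KO replicate 1, called the deep library, and 338824 to 411695 in the other 5, called the shallow libraries, so the deep library held 82.6 times their mean. Processed pseudogenes took 0.160%, 25.8% and 25.6% of counts in Sirpa-KO and 27.8%, 27.7% and 28.7% in Sirpa-WT, so the totals behind CPM and behind each deep-to-shallow ratio differ in makeup. Across 3393 protein-coding genes with little pseudogene sequence, Pearson's r on log2(CPM + 1) values ran over 0.437 to 0.587 between the deep library and the others and 0.881 to 0.920 among the others. Each comparison is therefore given with and without it. In CPM (a gene's counts per 1000000 counts of its library), 1 count was worth 0.0335 for the deep library and between 2.43 and 2.95 for the shallow ones. Of the cell type markers, 7 melanocyte genes summed to 15519, 12626 and 12990 CPM in Sirpa-KO and between 15960 and 19092 CPM in Sirpa-WT, and 3 of the 7 (Mitf, Pmel and Dct) fell without the deep library, where 4.52% of all 5510 genes tested did, a shift whose part in the results below was not tested. In such bulk samples fewer cells of a type and less RNA per cell cannot be told apart. The leukocyte gene Ptprc had 1 count in the deep library and 0 in each other. Counts of leukocyte markers were 148, 5 and 12 in Sirpa-KO, against 4 to 9 in Sirpa-WT, and of fibroblast markers 172, 0 and 5 against 0 to 3. Endothelial markers had 6, 0 and 0 against 0, and epithelial markers 4, 1 and 0 against 0 to 1. In CPM the leukocyte sum was 4.95 in the deep library, against 9.72 to 32.6 in the shallow ones, and the fibroblast sum 5.76 against 0 to 13.6. The endothelial sum was 0.20 against 0, and the epithelial sum 0.13 against 0 to 2.95. Sirpa, the targeted gene, had 1584, 6 and 6 counts in Sirpa-KO and 12, 7 and 3 in Sirpa-WT, or 53.0, 17.7 and 16.3 CPM against 29.1, 20.4 and 8.7 CPM. The deep library thus stood above each Sirpa-WT library in CPM, against its label as far as a knockout lowers the mRNA. Its log2 ratio of CPM to the mean of the shallow libraries was 1.52 for Sirpa. The median of this ratio over the 3393 genes was 0.96, so most of these genes stood higher there too. The shallow groups overlapped at too few counts to check their labels. The site of the edit is not given in the sources used here.

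Levels of the 10 genes ran from among the highest of the detected genes to a few counts per library. Per kilobase of exon, Phgdh, which commits the glycolytic intermediate 3-phosphoglycerate to serine, was the most abundant of the 10 in each shallow library, at 120 and 156 CPM per kb in Sirpa-KO replicates 2 and 3, against 175, 163 and 163 CPM per kb in Sirpa-WT. Atf4 was second, at 83.9 and 66.3 against 70.4, 79.3 and 73.9 CPM per kb, followed by the mitochondrial folate enzyme Mthfd2 at 49.9 and 58.0 against 62.5, 52.4 and 65.9. The Sirpa-WT ranges of these 3 levels do not overlap each other. Psat1, Slc3a2, Shmt2 and Asns followed, between 19.1 and 44.2 CPM per kb in Sirpa-WT, with ranges that overlap, so no order among these 4 is given. Ddit3, Slc7a5 and Trib3 lay at 10.3 to 22.1 CPM per kb in Sirpa-WT, and the range of Ddit3 overlaps those of Asns, Slc7a5 and Trib3. In Sirpa-WT, Phgdh stood above 97.4% to 97.8% of detected protein-coding genes and Atf4 above 94.2% to 94.8%, while Trib3 stood above 69.6% to 76.0%. In Sirpa-KO replicate 3, where Trib3 and Ddit3 had 3 counts each, they stood above 41.7% and 47.2%.

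In the deep library the order differed. Atf4 came first at 192 CPM per kb, above 98.1% of detected genes. Detected protein-coding genes numbered 14694 there and 9825 to 10151 in the shallow libraries, so this share is not comparable with those above. Mthfd2 and Asns followed at 97.2 and 97.1 and Shmt2 at 92.1, and Phgdh was the sixth at 78.3. Trib3 was the lowest of the 10 in this library too, at 9.0 CPM per kb.

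None of the 10 genes passed the test between genotypes. Over all 6 libraries edgeR's quasi-likelihood test called 0 of the 9 that passed the count filter, as it called 0 of 5397 genes (0%). It called 0 of the 10 once the deep library was left out, where it called 5.84% of 5510 genes (1.32% higher and 4.52% lower in Sirpa-KO). At an unadjusted p under 0.05 the counts were 0 of 9 with all 6 libraries (6.37% of all genes) and 1 of 10 without the deep one (Phgdh, 20.8% of all genes). The 10 log2 fold changes without the deep library had a median of -0.22, with 9 below 0 and Shmt2 above, and the median over all genes was 0.013, with 48.8% below 0. Trib3, among those below 0, passed the count filter there only through Sirpa-WT libraries. Scaling by library size alone moved the median over all genes to 0.15 and that of the 10 to -0.079, with 7 below 0, so each direction is read against most other genes. With all 6 libraries the median of the 9 was 0.34, 6 above 0, against 0.11 over all genes. For Atf4, Asns, Psat1, Mthfd2 and Slc7a5 the sign of the log2 fold change turned with the deep library. The Sirpa CPM of that library goes against its label only as far as a knockout lowers the mRNA.

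**Figure D1:**
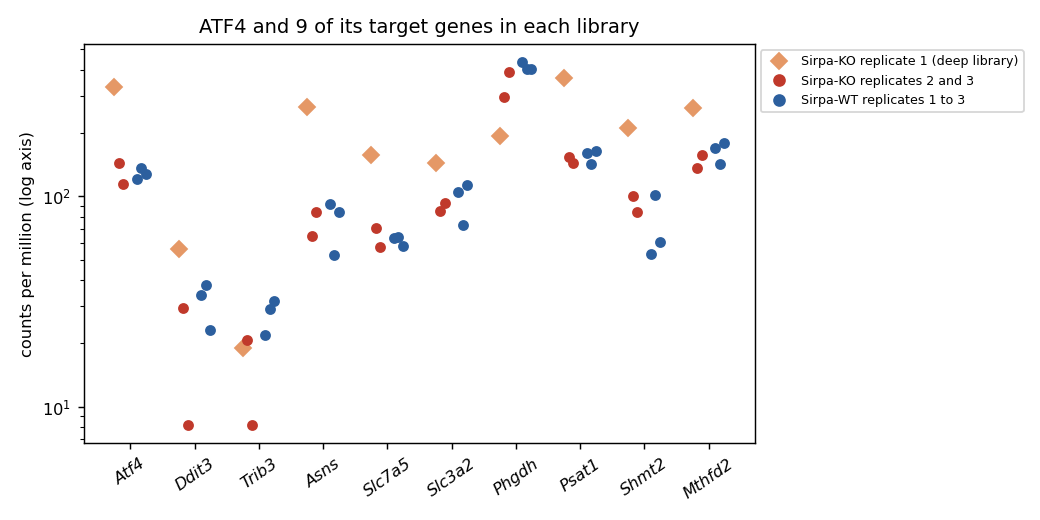
CPM (log axis) of each gene in each library, with Sirpa-KO at the left of each gene (diamond, the deep replicate 1; red circles, replicates 2 and 3) and Sirpa-WT at the right (blue circles). The diamond lies above each circle for 8 genes, and below each Sirpa-WT circle for Phgdh and Trib3.

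Atf4 (ENSMUSG00000042406, on the plus strand of chromosome 15 from 80255184 to 80257540 in GRCm38, with 3 merged exons) had 332, 145 and 114 CPM in Sirpa-KO replicates 1 to 3, against 121, 137 and 127 CPM in Sirpa-WT. In the shallow libraries the Sirpa-WT values lay between those of the Sirpa-KO replicates, and the deep library stood above all 5. Without the deep library Sirpa-KO averaged 129 ± 21.5 CPM (SD, n = 2) and Sirpa-WT 128 ± 7.7 (SD, n = 3), and the log2 fold change was -0.11 (95% interval -0.53 to 0.31, edgeR adjusted p = 0.825). With it the log2 fold change was 0.45 (-0.62 to 1.51, adjusted p = 0.665). Intervals are not adjusted for the number of genes.

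Ddit3, which encodes the pro-apoptotic factor CHOP (chromosome 10, 127290774 to 127296288, plus strand), had 1675, 10 and 3 counts in Sirpa-KO, against 14, 13 and 8 counts in Sirpa-WT, or 56.1, 29.5 and 8.2 CPM against 34.0, 37.8 and 23.2 CPM. Sirpa-KO replicate 3 was the lowest library and Sirpa-KO replicate 2 lay within the Sirpa-WT range. Its log2 fold change of -0.89 without the deep library (-1.86 to 0.068, adjusted p = 0.284) was -0.24 to -2.06 over the alternatives run. The lowest value came without Sirpa-KO replicate 2 and the nearest to 0 without Sirpa-KO replicate 3, in fits that each leave 1 shallow Sirpa-KO library. With the deep library it was -0.15 (-1.83 to 1.53). Of its 1713 exon bases, 4.73% overlap other genes, the methionyl-tRNA synthetase gene Mars among them, and strand was not used in the counting.

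Trib3, a pseudokinase that ATF4 and CHOP induce and that restrains them (chromosome 2, 152337422 to 152344032, minus strand), had 569, 7 and 3 counts in Sirpa-KO, against 9, 10 and 11 counts in Sirpa-WT. That is 19.0, 20.7 and 8.2 CPM against 21.9, 29.1 and 31.8 CPM, and each Sirpa-KO library stood below each Sirpa-WT library. Groups also did not overlap, with Sirpa-KO lower, in 11.8% of genes tested without the deep library. In that set Trib3 passed the count filter, near 28.9 CPM, only through Sirpa-WT replicates 2 and 3. Its place there depended on a high Sirpa-WT level, so its direction is not independent of the filter. The log2 fold change was -1.05 (-2.17 to 0.079, adjusted p = 0.284) without the deep library and -1.14 (-2.41 to 0.12, adjusted p = 0.938) with it, the second from a fit without the count filter, which Trib3 did not pass over 6 libraries. Leaving out 1 more library moved the first to -0.53 (without Sirpa-KO replicate 3) and -1.84 (without Sirpa-KO replicate 2), and neither passed, in fits with 1 Sirpa-KO library. Pooled over the shallow libraries, 10 counts in Sirpa-KO against 30 in Sirpa-WT give a ratio of 0.519, and the exact 95% interval, which covers counting error alone, is 0.227 to 1.09.

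**Figure D2:**
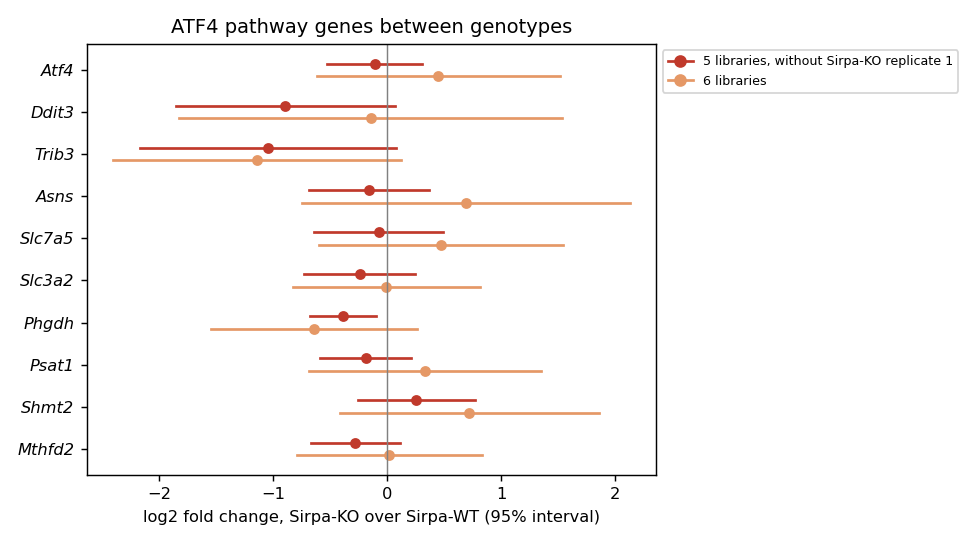
Log2 fold change of Sirpa-KO over Sirpa-WT (x axis) of each gene with its 95% interval, without the deep library (red) and with all 6 libraries (orange). Each interval spans 0 except that of Phgdh without the deep library (-0.68 to -0.10); the 6-library value of Trib3 is from the fit without the count filter.

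Asns (chromosome 6, 7675169 to 7693254, minus strand) makes asparagine from aspartate and glutamine. It had 266, 64.9 and 84.3 CPM in Sirpa-KO, against 92.3, 52.4 and 83.9 CPM in Sirpa-WT. The shallow libraries of both genotypes overlapped, and the deep one was the highest. The log2 fold change was -0.16 (-0.69 to 0.37, adjusted p = 0.798) without the deep library and 0.69 (-0.75 to 2.14, adjusted p = 0.622) with it. Slc7a5 (LAT1; chromosome 8, 121881150 to 121907694, minus strand), which imports leucine and other large neutral amino acids, had 158, 70.8 and 57.1 CPM in Sirpa-KO, against 63.2, 64.0 and 57.9 CPM in Sirpa-WT. Slc3a2 (CD98hc; chromosome 19, 8706882 to 8723369, minus strand), the glycoprotein partner that brings Slc7a5 to the membrane, had 144, 85.6 and 92.5 CPM, against 104, 72.7 and 113 CPM. In the shallow libraries the groups overlapped for both subunits. Their log2 fold changes without the deep library were -0.075 (-0.64 to 0.49) for Slc7a5 and -0.24 (-0.73 to 0.24) for Slc3a2, and with it 0.47 (-0.60 to 1.54) and -0.0067 (-0.83 to 0.81).

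Phgdh (chromosome 3, 98313170 to 98339990, minus strand) had the smallest p among the 10 without the deep library; with all 6 libraries Trib3, in the fit without the count filter, had a smaller one (unadjusted p of 0.0716 against 0.132). It had 195, 298 and 389 CPM in Sirpa-KO, against 435, 404 and 405 CPM in Sirpa-WT, and each Sirpa-KO library stood below each Sirpa-WT library. Groups did not overlap in this direction in 10.2% of genes tested over 6 libraries (20.4% with Sirpa-KO higher) and in 11.8% without the deep one (26.3% with Sirpa-KO higher). Without the deep library Sirpa-KO averaged 344 ± 64.2 CPM (SD, n = 2) and Sirpa-WT 415 ± 17.4 (SD, n = 3). The log2 fold change was -0.39 ± 0.15 (SE), with an unadjusted p of 0.00791 and an edgeR adjusted p of 0.0884, so it missed the threshold of 0.05. It was -0.24 without Sirpa-KO replicate 2 and -0.61 without Sirpa-KO replicate 3, neither called, again with 1 Sirpa-KO library left. With all 6 libraries it was -0.64 ± 0.37 (SE, adjusted p = 0.574).

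Phgdh is also the gene of the 10 that shares most sequence with pseudogenes. Of its 25-base words, 58.0% occur in annotated pseudogenes, against 0 to 4.86% in the other 9 genes, so reads may be split between it and its copies. Pseudogenes that share at least 100 words with it number 8, and these had 337, 56 and 71 counts in Sirpa-KO, against 72, 73 and 57 in Sirpa-WT. As for pseudogenes at large, the deep library stood apart: the copies took 5.48%, 35.7% and 33.2% of the joint counts in Sirpa-KO and 28.7%, 34.4% and 28.9% in Sirpa-WT. All 337 counts of the deep library lay in 1 copy, Gm5847, and the other 7 had 0 there. With the copies added, Phgdh stood at 206, 463 and 582 CPM in Sirpa-KO, against 610, 617 and 570 CPM in Sirpa-WT, and Sirpa-KO replicate 3 then lay within the Sirpa-WT range. The log2 fold change with copies added, an alternative chosen after seeing the data, was -0.31 (adjusted p = 0.125) without the deep library. The part of the copies in the difference was not tested.

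**Figure D3:**
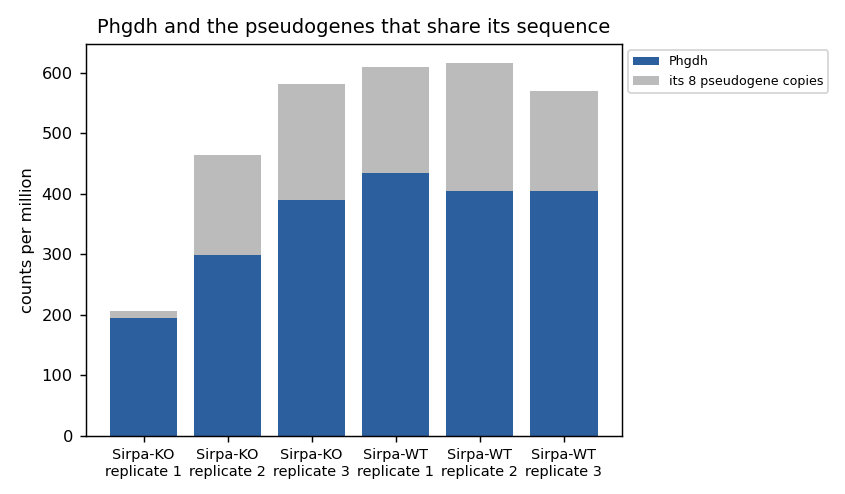
CPM in each library of Phgdh (blue) and, stacked on it, of the 8 pseudogenes that share at least 100 of its 25-base words (grey), Sirpa-KO libraries first. The summed bar of Sirpa-KO replicate 3 (582 CPM) lies within the range of the Sirpa-WT bars (570 to 617), and the grey part is 11.3 CPM for the deep library, where the others have 165 to 212.

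The enzymes after Phgdh did not pass the test either. Psat1, the aminotransferase of the next step (chromosome 19, 15904678 to 15947337, minus strand), had 365, 153 and 144 CPM in Sirpa-KO, against 160, 143 and 165 CPM in Sirpa-WT. The log2 fold change was -0.19 (-0.59 to 0.21, adjusted p = 0.647) without the deep library, which is also left out of the next 2 fold changes. Shmt2, which splits serine into glycine and a one-carbon unit in mitochondria (chromosome 10, 127517123 to 127522444, minus strand), had 212, 100.3 and 84.3 CPM, against 53.4, 101.8 and 60.8 CPM, a log2 fold change of 0.25 (-0.26 to 0.77, adjusted p = 0.636). Its coefficient of variation in Sirpa-WT, 36.2%, was the largest of the 10, where counting alone gives 19.6%. Mthfd2, which oxidises that one-carbon unit (chromosome 6, 83305691 to 83317606, minus strand), had 265, 136 and 158 CPM, against 170, 143 and 179 CPM, a log2 fold change of -0.28 (-0.67 to 0.11, adjusted p = 0.450). In the shallow libraries the groups of all 3 enzymes overlapped. With all 6 libraries their log2 fold changes were 0.34, 0.72 and 0.019, and none passed. Of the exon bases of Shmt2, 1.3% overlap Ndufa4l2 on the other strand. Differences between these genes' fold changes were not tested.

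How far each gene stood from the others in the deep library separated Phgdh and Trib3 from the remaining 8. The 3393 protein-coding genes had under 5% of words in pseudogenes and passed the count filter with all libraries included. Over them, CPM in the deep library over the mean CPM of the shallow ones gave a log2 ratio with a median of 0.96. The ratios fell into an upper and a lower cluster, and 30.9% of genes lay more than 1 below the median. Asns lay 0.85 above the median, higher than 91.0% of these genes, and Shmt2, Atf4, Slc7a5, Psat1 and Ddit3 lay 0.12 to 0.44 above it. Mthfd2 and Slc3a2 lay -0.21 and -0.34 from it. Phgdh lay at -1.95 and Trib3 at -1.19, past the bound of 1 below. Trib3 had only 3 to 11 counts in each shallow library, so counting error may put it on either side of that bound. Both genes are themselves outside that gene set, Phgdh for its pseudogene words and Trib3 because it did not pass that count filter. These are also the 2 of the 10 whose shallow Sirpa-KO libraries both stood below Sirpa-WT, as in 11.8% of genes tested without the deep library. Trib3 was among the genes tested there only through its Sirpa-WT libraries. The ratio is divided by a mean that includes Sirpa-WT, so both measures share values. With the trend on this ratio removed, the log2 fold change was -0.16 for Phgdh (adjusted p = 0.710) and -0.92 for Trib3 (adjusted p = 0.547), without the deep library. Of the protein-coding neighbours within 1 megabase, 3 of 66 lay past the bound for the 8 genes together. Those near both Ddit3 and Shmt2, which are close on chromosome 10, counted for each. Ddit3 and Shmt2 also counted as neighbours of each other. Near Asns, the gene with the highest ratio, 2 of 4 neighbours lay past the bound. Past it also lay both of the 2 measured near Phgdh, and 3 of 9 near Trib3, where 30.9% of all 3393 genes did. The part of the deep library's ratio in these differences was not tested.

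**Figure D4:**
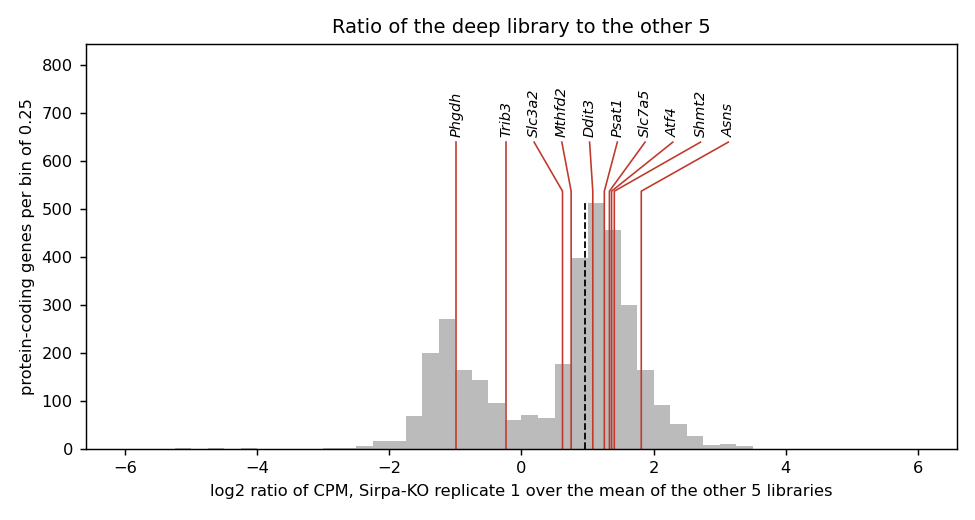
Histogram of the log2 ratio of CPM in Sirpa-KO replicate 1 over the mean of the other 5 libraries (x axis) for 3393 protein-coding genes (y axis, genes per bin of 0.25), with the 10 genes as red lines and the median of 0.96 dashed. Phgdh (-0.99) lies in the lower cluster, Trib3 (-0.23) between the clusters, and the other 8 genes at 0.62 to 1.81 in the upper one.

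Other genes of the pathway were given by 7 lists with 121 genes, of which 68 were tested. Once the deep library was left out, 0 rose and 7 fell in Sirpa-KO (10.3% of 68, against 4.52% of all genes), and with all 6 libraries 0 were called. All 7 that fell lay past the bound on the deep library's ratio, at -1.14 to -3.27 from the median. Of the 3393 genes, 30.9% lay past it. The ratio is divided by a mean that includes Sirpa-WT, so a higher Sirpa-WT level lowers both the ratio and the fold change. Eif2s2, Map1lc3b and Eif4ebp1 are outside the 3393 for their pseudogene words. The part of the deep library's ratio in these falls was not tested. Of the 9 serine and one-carbon genes tested, 1 fell (median log2 fold change -0.11). This was Aldh1l2, the mitochondrial formyltetrahydrofolate dehydrogenase, with 26.4, 73.8 and 57.1 CPM in Sirpa-KO, against 151, 163 and 110.0 CPM in Sirpa-WT. Each Sirpa-KO library was below each Sirpa-WT library, and the log2 fold change without the deep library was -1.24 ± 0.25 (SE, edgeR adjusted p = 5.88e-05).

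Of 5 ATF4 partners and stress effectors tested, 2 fell (median 0.044). Eif4ebp1, a repressor of cap-dependent translation that ATF4 is known to induce, had 130, 171 and 199 CPM in Sirpa-KO, against 240, 332 and 370 CPM in Sirpa-WT. The log2 fold change stood at -0.87 ± 0.17 (SE, adjusted p = 6.81e-05), the groups did not overlap, and 5.27% of its words occur in pseudogenes. The autophagosome protein gene Map1lc3b stood at -0.50 (adjusted p = 0.0135, 7.01% of words in pseudogenes). Atf3 had 296, 0 and 4 counts in Sirpa-KO, against 0, 0 and 1 in Sirpa-WT, and Chac1, a glutathione-degrading enzyme, had 420, 0 and 1 counts, against 5, 3 and 6. Both were under the count filter. In the fit without it neither passed (adjusted p = 0.765 for Atf3, and 0.174 for Chac1, whose unadjusted p was 0.00480). Of 6 amino acid transporter genes, 1 fell (median 0.13), the glutamine transporter gene Slc38a2 (-0.45, adjusted p = 0.0330). Of 18 aminoacyl-tRNA synthetase genes 0 were called (median -0.024), and Gars, the highest by mean CPM over 6 libraries through the deep one (Dars and Hars were higher over the shallow libraries), had 493, 224 and 253 CPM in Sirpa-KO, against 238, 189 and 234 CPM in Sirpa-WT (log2 fold change -0.0089, adjusted p = 0.983). Of 5 genes of other amino acid synthesis 0 were called (median 0.19), and the ornithine aminotransferase gene Oat, the highest by mean CPM over 6 libraries (Got2 was higher over the shallow ones), stood at 0.24 (adjusted p = 0.560).

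Upstream, the kinases Eif2ak1, Eif2ak2 and Eif2ak4 were not called and Eif2ak3 was under the count filter. Of 11 genes tested for the kinases, phosphatases and factors of eIF2, 1 fell (median 0.14), Eif2s2, the beta subunit of eIF2 (-0.33, adjusted p = 0.0109, 12.8% of words in pseudogenes). Of 14 genes of the parallel ATF6 and XBP1 branches of the endoplasmic reticulum stress response, 2 fell (median -0.095). The transcription factor gene Xbp1 had 106, 106 and 65.3 CPM in Sirpa-KO, against 153, 131 and 145 CPM in Sirpa-WT (-0.87 ± 0.23, SE, adjusted p = 0.00596), and lost its call when Sirpa-KO replicate 3 was left out (-0.56, adjusted p = 0.373), in a fit with 1 Sirpa-KO library, assumed to vary as the Sirpa-WT libraries do. The disulphide isomerase gene Pdia6 had 472, 939 and 955 CPM, against 1387, 1341 and 1470 CPM (-0.68 ± 0.10, SE, adjusted p = 3.21e-08). In both genes each Sirpa-KO library was below each Sirpa-WT library. Aldh1l2, Eif4ebp1, Xbp1 and Pdia6 were called with the trend on the deep library's ratio removed (-0.97, -0.65, -0.79 and -0.41). Slc38a2 (-0.19), Map1lc3b (-0.26) and Eif2s2 (-0.11) were not. These 3 also lost their calls when single libraries were left out, which leaves 1 Sirpa-KO library where it is one of Sirpa-KO. Slc38a2 did so without Sirpa-KO replicate 2 or 3 or Sirpa-WT replicate 1 or 2 (-0.43 to -0.48), Eif2s2 without Sirpa-KO replicate 2 or 3 or Sirpa-WT replicate 2 (-0.29 to -0.42), and Map1lc3b without Sirpa-KO replicate 2 (-0.30) or Sirpa-WT replicate 2 (-0.45).

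**Figure D5:**
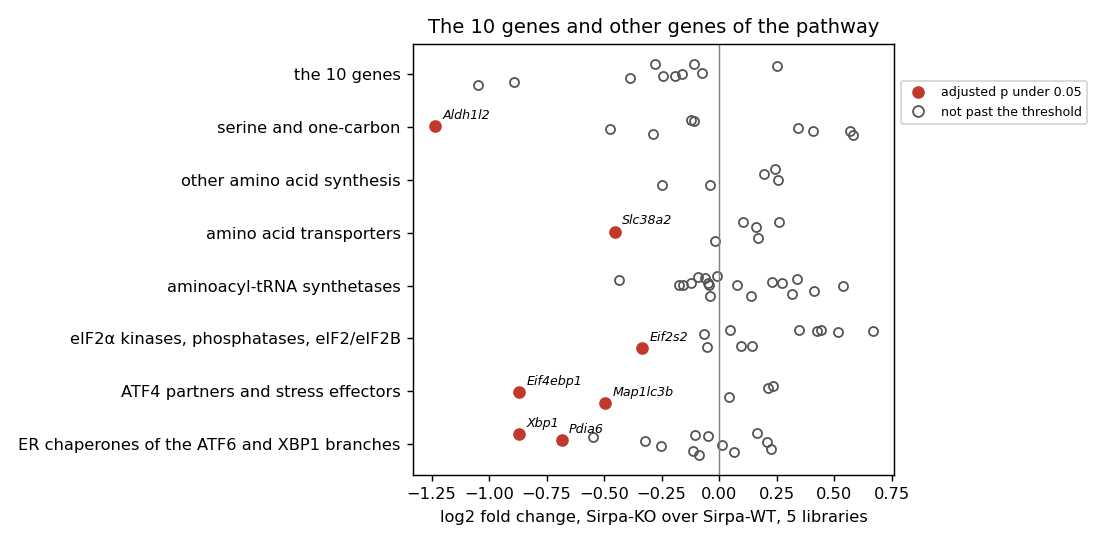
Log2 fold change of Sirpa-KO over Sirpa-WT without the deep library (x axis) for each tested gene of the 10 and of the 7 other lists, spread vertically within a list for legibility. Filled points have an adjusted p under 0.05 (edgeR): 0 of the 10 genes and 7 of 68 others, each lower in Sirpa-KO.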

How the data were processed

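Gene expression was measured by paired-end sequencing of poly(A)-selected RNA in 6 libraries, grouped by their titles. The deposited values are raw counts of fragments, which the authors obtained per the file headers from featureCounts 1.5.1 (exon features of Ensembl release 75, GRCm38), with no strand option although the kit is stranded per the labels. The submitters' processing notes also name STAR 2.6.0 and Subread. Sirpa-KO replicate 1 differs from the others in depth and in its share of processed pseudogenes (0.160% against 25.6% to 28.7%), and the source of this was not tested.

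Symbols came from GENCODE mouse release 21 by gene identifier (37607 of 39179 genes). The 10 genes, the lists and the tests were chosen with earlier results of these data known. The count filter was filterByExpr (minimum count 10, near 28.9 CPM with 5 libraries). After TMM scaling, edgeR 4.0.16 in R 4.3.3 gave 2-sided quasi-likelihood tests (glmQLFit with robust=TRUE, glmQLFTest). P-values were adjusted by Benjamini-Hochberg across the whole table, with 0.05 as the threshold. For a gene under the filter, the values come from an unfiltered fit. Named were the 10, Sirpa and, from each list, up to 4 called without Sirpa-KO replicate 1 or else the one of highest mean CPM over 6 libraries; Atf3, Chac1 and the eIF2α kinases were picked with their values known.

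Alternatives were other scalings, filters and tools (DESeq2 1.42.0, limma 3.58.1 voom), robust=FALSE, protein-coding genes only, the replicate number as a block, leaving out each library, thinning of Sirpa-KO replicate 1, and removal of a lowess trend (span 0.3) on its ratio to the others. Between shallow replicates of one genotype, chi-square over its degrees of freedom was 1.18 to 1.64, above counting noise. Exact intervals cover counting error only.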

Additional observations from a re-analysis of the deposited data

How the results depend on the processing

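None of the 10 genes was called under any alternative run, with or without the deep library (0 in each); DESeq2 without it gave an adjusted p for 1 of the 10, Phgdh (0.183). Genes called over 6 libraries numbered 0, 1 with DESeq2 and 1283 with limma voom (17 higher, 1266 lower in Sirpa-KO), and 0 to 322 with each library left out (322 without Sirpa-KO replicate 1). Without the deep library 322 were called, 132 with DESeq2, 196 over protein-coding genes only, 112 with the trend on the ratio removed, and 125 to 351 with each library left out (125 when Sirpa-KO replicate 2 was left out, 127 for Sirpa-KO replicate 3 and 214 for Sirpa-WT replicate 2); the cause was not tested. Library size alone called 407, 279 higher and 128 lower, against 73 and 249 with TMM. Correlations of same-numbered deviations from the group means were -0.042 to 0.058 over 6 libraries. Sirpa-KO replicates 2 and 3 gave like values (0.065 and 0.058 with Sirpa-WT replicate 3), opposite in sign to the deep library (-0.063). The check could therefore not show or exclude a pairing by replicate number. The replicate block called 0 genes over 6 libraries and 316 without the deep one. With 338824 to 411695 counts in the shallow libraries, the 95% interval of Trib3 spans -2.17 to 0.079.

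Uncalled log2 fold changes turned sign as follows. Over 6 libraries Ddit3 was 0.16 by library size alone and 0.52 with voom. Mthfd2 was -0.15 with RLE scaling, -0.20 without a filter, -0.25 at 1 CPM in 3 libraries, -0.13 with DESeq2, -0.24 over protein-coding genes, -0.025 with the replicate block and -0.16 with Sirpa-KO replicate 1 thinned. Slc3a2 was 0.0091 with upper quartile scaling, 0.26 by library size alone and 0.062 with voom. Without the deep library, library size alone gave 0.026 for Atf4, 0.062 for Slc7a5 and 0.13 for Gars, and the replicate block 0.0071 for Asns and 0.051 for Gars.

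With each library left out, the 6-library values ran over -0.030 to 0.62 for Sirpa where it passed the count filter (-0.38 without Sirpa-KO replicate 1, from the fit without a filter), -0.11 to 0.63 for Atf4, -0.89 to 0.20 for Ddit3, -0.16 to 0.88 for Asns, -0.19 to 0.47 for Psat1, -0.28 to 0.074 for Mthfd2, -0.075 to 0.64 for Slc7a5, -0.28 to 0.020 for Slc3a2 and -0.0089 to 0.46 for Gars. Without the deep library they ran over -0.31 to 0.041 for Atf4, -0.38 to 0.017 for Asns, -0.25 to 0.065 for Slc7a5 and -0.11 to 0.055 for Gars.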
